A study of Mus musculus with 48 samples.

Results

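The 8 genes Gpr17, Cspg4, Neu4, Pdgfra, Olig1, Olig2, Sox10 and Ptprz1, taken by symbol as genes of the oligodendrocyte lineage, were followed through mouse visual system RNA-seq libraries. They were chosen with earlier results of these data known. They are 8 of the 54331 genes in the deposited tables, and all 8 were found. The study asked which polyadenylated RNAs lie in the axons of retinal ganglion cells (RGCs), the output neurons of the eye, where these axons end in the superior colliculus (SC) or the lateral geniculate nucleus (LGN). Total labelled RNA was obtained by injecting ethynyl uridine (EU), a nucleoside that is built into new RNA, into the vitreous of the eye and pulling the labelled RNA out of brain tissue. Ribosome-bound RNA was obtained by axon-TRAP, translating ribosome affinity purification of tagged axonal ribosomes.

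The series held 48 libraries in 15 groups. The sarm1ko group was SC EU RNA of axotomized animals taken after a 7-day chase from P14, with 3 libraries. Libraries labelled fmr1ko, all naïve for axotomy and of age P14, comprised 3 of SC EU RNA, 3 of SC axon-TRAP and 3 of FACS-sorted eye cells. The wild-type, naïve EU groups from the SC were P10 with 3 libraries, P14 with 5, P10 with a 4-day chase with 3, and 8 weeks with 3. Wild-type, naïve axon-TRAP groups were SC at P10 with 3 libraries, SC at P14 with 5 and LGN at P14 with 3. Wild-type LGN EU RNA at P14 had 2 libraries. The remaining wild-type eye groups, all at P14, were 3 libraries of immunopanned RGCs, 3 of EU-labelled immunopanned RGCs and 3 of FACS-sorted cells. Each EU sample of the SC pooled 3 animals. The labels name neither the Cre line or promoter behind the TRAP tag nor the gate of the sort, and no EU-free or tag-free brain sample was analysed here. Nothing in the labels ties the libraries of a group to separate animals; the p-values therefore rest on library-to-library spread, which may be technical.

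Positions are given on GRCm38 (GENCODE M21), where all 8 genes are protein coding. Neu4 lies at chr1:94020451-94028334, Pdgfra at chr5:75152292-75198215, Ptprz1 at chr6:22875502-23052916 and Cspg4 at chr9:56865033-56899870, all on the plus strand. Olig2 (chr16:91225457-91228677) and the single-exon gene Olig1 (chr16:91269772-91271933) are neighbours on the plus strand. Sox10 lies at chr15:79154908-79165240 and Gpr17 at chr18:31942997-31949636, both on the minus strand. Gpr17 lies inside Lims2, a gene on the opposite strand, and Olig1 and Pdgfra also overlap antisense genes. Whether counting used the strand is not given in the sources used here, so these values may hold reads of the overlapping gene.

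Oligodendrocyte precursor cells (OPCs) divide throughout the brain, sense platelet-derived growth factor through the receptor Pdgfra and carry the proteoglycan Cspg4 (NG2) on their surface. When they stop dividing they pass through a short committed stage marked by the receptor Gpr17 and then make myelin. The transcription factors Olig1, Olig2 and Sox10 act through the whole lineage. Neu4 encodes a sialidase that is enriched in OPCs, and Ptprz1 encodes a receptor tyrosine phosphatase of OPCs, radial glia and astrocytes that binds pleiotrophin. Pericytes, the mural cells of capillaries, also make Cspg4, so that this gene is not specific to the lineage. In the optic nerve and tectum these cells ensheath the axons of RGCs, which do not themselves belong to the lineage.

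The members differed in base composition, which is shown because several results below moved with the G and C content of transcripts. The share of G and C in the longest transcript was 61.8% for Sox10, 61.1% for Olig1, 59.2% for Cspg4 and 58.5% for Olig2, all above the 90th percentile of 11120 expressed genes. It was 53.4% for Gpr17, 49.7% for Neu4, 48.1% for Pdgfra and 44.5% for Ptprz1, the last at percentile 20.7. The stretches of 60 coding bases below, one from each end of this range and 2 between, have a composition close to that of their whole transcript; they are written 5′ to 3′ along the coding strand, with G and C in capitals. The Sox10 stretch is chr15:79163657-79163716 on the minus strand in exon 3, the Olig1 stretch chr16:91269877-91269936 on the plus strand in exon 1, the Pdgfra stretch chr5:75163541-75163600 on the plus strand in exon 3, and the Ptprz1 stretch chr6:22925830-22925889 on the plus strand in exon 2. They hold 37, 37, 29 and 27 G or C bases.
Sox10: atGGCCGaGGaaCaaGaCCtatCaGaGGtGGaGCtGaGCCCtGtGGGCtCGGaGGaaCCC
Olig1: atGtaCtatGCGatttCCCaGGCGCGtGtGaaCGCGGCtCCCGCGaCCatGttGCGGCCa
Pdgfra: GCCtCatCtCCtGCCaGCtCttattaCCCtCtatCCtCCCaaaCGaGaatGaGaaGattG
Ptprz1: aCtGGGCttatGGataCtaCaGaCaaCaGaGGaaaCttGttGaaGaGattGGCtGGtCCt

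Between 2558141 and 48263706 counts were estimated per library (median 22212787). In the 3 sarm1ko libraries Sarm1 stood at 2.504, 7.63 and 0.795 TPM (transcripts scaled per length and library, a level comparable between genes), against 25.4, 39.6 and 16.4 TPM in the wild-type P14 SC EU libraries they were compared with, a log2 fold change of −3.15 ± 0.48 (SE; adjusted p = 0.0023, edgeR). Fmr1 was not lower in the SC EU libraries labelled fmr1ko, at 12.2, 2.27 and 15.4 TPM, than in wild-type P14 libraries, at 0.843, 1.18 and 0.424 TPM (log2 fold change 3.07 ± 0.74, adjusted p = 0.069, edgeR), which goes against the label; where the deletion lies within the gene is not given. In SC axon-TRAP, Fmr1 was at 0.0584, 6.01 and 3.62 TPM in libraries labelled fmr1ko, against 2.16, 1.27 and 5.37 TPM in wild type (−0.24 ± 1.52, adjusted p = 0.97, edgeR), and in FACS eye cells at 26.7, 2.58 and 2.96 TPM in those labelled fmr1ko, against 21.2, 13.01 and 5.48 TPM in wild type (−0.62 ± 0.90, adjusted p = 0.88, edgeR). Replicate 2 of the SC axon-TRAP libraries labelled fmr1ko went against its tissue label: its summed level of 9 rod photoreceptor markers was 53200 TPM and that of 14 myelin genes 26.5 TPM, and its mean correlation over genes was 0.897 with wild-type FACS eye libraries and 0.552 with its own group. The comparison between genotypes in axon-TRAP, its interaction and the correlations use this library and are given with and without it. The SC P14 groups held 2 code series in their titles; comparisons used replicates 3 to 5, whose series the other SC groups share, except those with the LGN.

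The brain libraries held RNA of all 8 genes and the eye libraries little of most of them. Olig1 had the highest mean TPM of the 8 in all 11 brain groups, and Neu4 and Pdgfra ranked between the sixth and the last. Over the 36 brain libraries, Olig1 ranged from 0.0810 to 1794 TPM with a median of 229, Sox10 from 0 to 426 TPM with a median of 54.8, and Olig2 from 0 to 315 TPM with a median of 38.5. Gpr17 ranged from 0 to 180.4 TPM (median 38.0), Cspg4 from 1.35 to 51.0 TPM (median 20.5) and Ptprz1 from 0 to 259 TPM (median 9.31). Neu4 reached 30.6 TPM (median 6.69) and Pdgfra 16.3 TPM (median 4.76). Every brain value of 0 came from 1 library, replicate 2 of SC axon-TRAP labelled fmr1ko. Over the 12 eye libraries the highest level was 0.0164 TPM for Gpr17, 0.00842 for Neu4, 0.0411 for Olig2, 1.23 for Pdgfra, 4.60 for Sox10, 4.72 for Ptprz1, 4.83 for Olig1 and 15.2 for Cspg4. The FACS eye libraries, in which Cspg4 was highest among eye groups, also held 1423 to 2034 TPM in sum of 8 pericyte markers, against 26.2 to 395.7 TPM in wild-type P14 SC EU libraries. The 2 did not run together in every eye library: wild-type FACS replicate 2 held 1529 TPM of these markers with 0.229 TPM of Cspg4, and RGC EU replicate 1 held 1675 TPM with Cspg4 at 0. The sum of these markers was high in eye libraries rich in rod markers, which summed to 41500 to 83120 TPM in the FACS libraries. In RGC EU replicates 2 and 3 rod markers summed to 2644 and 4481 TPM and pericyte markers to 101.9 and 110.1 TPM. Whether the 8 markers stand for pericytes in eye cells, and the part of pericytes in the Cspg4 level, was not tested. In bulk tissue fewer cells of a type and less RNA per cell cannot be told apart.

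**Figure D1:**
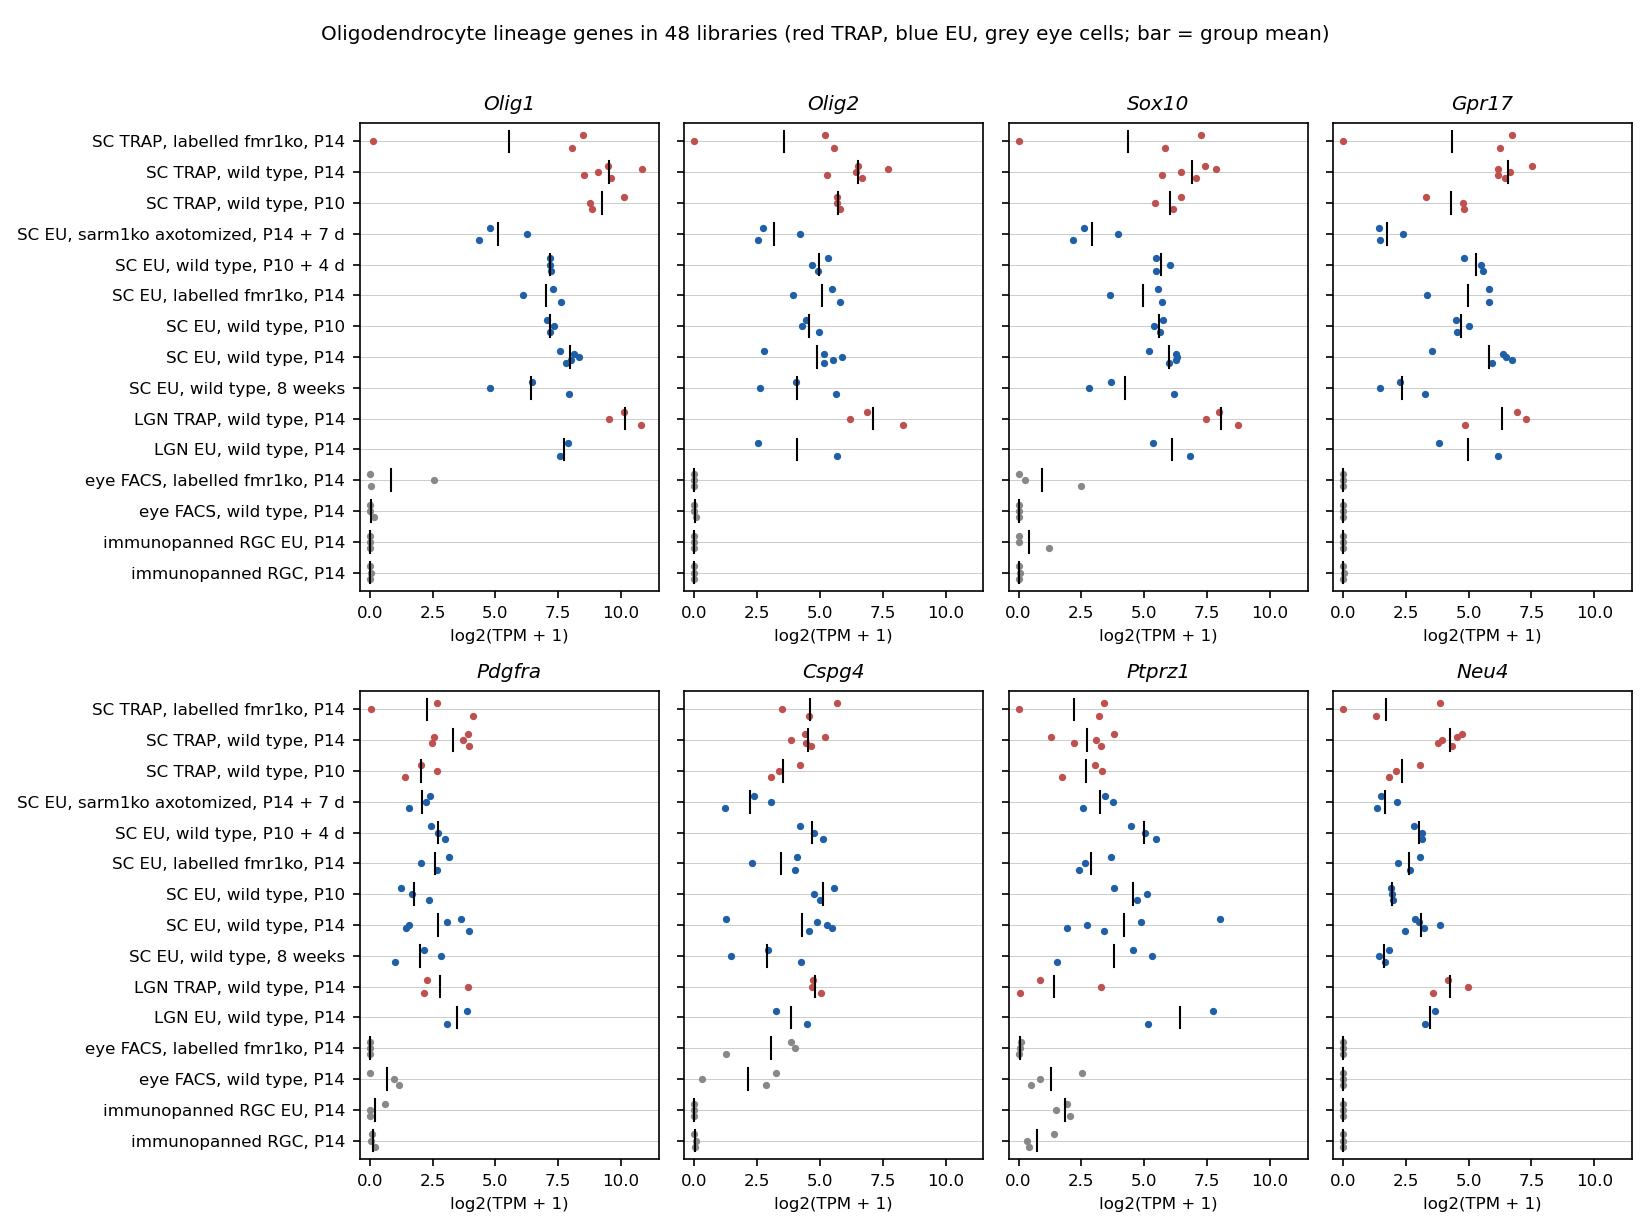
TPM of each of the 8 genes in every library (log2(TPM + 1) on the horizontal axis), by group down the page, with the mean of these log2 values as a bar. Levels were high in the brain groups and near 0 in the eye groups, apart from values of Cspg4, Ptprz1, Olig1, Sox10 and Pdgfra of up to 15.2 TPM; within brain groups single libraries stood far from the rest, such as Ptprz1 at 259 TPM in replicate 1 of P14 SC EU.

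Ordered by mean TPM, the groups formed a gradient with few gaps. Olig1 was highest in LGN axon-TRAP at 1204 ± 539 TPM (SD, n = 3), followed by SC axon-TRAP at P14 (837 ± 558, n = 5) and at P10 (659 ± 375, n = 3). All SC and LGN EU groups lay below these means, between 252.8 ± 50.9 TPM at P14 in the SC (n = 5) and 40.3 ± 30.6 TPM in the sarm1ko group (n = 3). TPM is scaled within a library, so it is lower for the other genes where 1 gene takes a large share. A single rRNA-annotated gene took 27.4 to 48.5% of counts in the sarm1ko libraries, against 0.101 to 33.7% in wild-type P14 SC EU. Gpr17 was highest in SC axon-TRAP at P14 (100.8 ± 46.0 TPM, n = 5) and LGN axon-TRAP (99.9 ± 64.8, n = 3) and lowest among brain groups at 8 weeks (4.70 ± 3.46, n = 3) and in sarm1ko SC (2.57 ± 1.45, n = 3). The order for Ptprz1 ran the other way, with LGN EU at 121.9 ± 124 TPM (n = 2) and SC EU at P14 at 61.1 ± 111 TPM (n = 5) at the top and LGN axon-TRAP at 3.17 TPM near the bottom of the brain groups. Of the 14 steps between neighbouring groups in these orders, the libraries did not overlap in 2 for Gpr17, Neu4, Olig1, Olig2 and Pdgfra, in 1 for Cspg4 and Ptprz1, and in 0 for Sox10. All other neighbouring groups overlapped.

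Comparison of brain EU RNA with EU RNA of the cell bodies set SC EU libraries at P14 against EU-labelled immunopanned RGCs. In RGC EU replicate 1 rod markers summed to 57580 TPM. Its mean correlation over genes was 0.876 with wild-type FACS eye libraries and 0.775 with its own group. Markers of RGCs summed to 111.5 to 325.2 TPM in RGC EU libraries, against 1701 to 3325 TPM in wild-type P14 SC EU libraries. The share of RGCs among the panned cells was not tested. Levels within a comparison are given from here on as normalised CPM, CPM being counts scaled to a common library size, and a gene is called where its Benjamini-Hochberg adjusted p in edgeR's quasi-likelihood test was under 0.05. Olig1 had 345, 303 and 271 CPM in SC EU, and Gpr17 257, 330 and 192 CPM; both were at 0 in all 3 RGC EU libraries. Cspg4, Olig2 and Neu4, which averaged 67.5, 63.7 and 23.1 CPM in SC EU, were likewise at 0 in all 3. SC EU exceeded the limit that a count of 0 allows (3 counts over the group, 0.053 CPM) at least 5780-fold for Olig1, 4900-fold for Gpr17, 1270-fold for Cspg4, 1200-fold for Olig2 and 436-fold for Neu4. Sox10 had 110, 120 and 97.4 CPM in SC EU, against 0, 0 and 5.75 CPM in RGC EU (log2 fold change 5.84 ± 1.85, adjusted p = 0.049); its call was lost without any one of SC EU replicates 3 to 5 or of RGC EU replicates 1 and 2 (adjusted p up to 0.10). These 6 members were called higher, but each passed the filter on low counts only through the SC EU libraries where it is high. The count and the adjusted p of Sox10 are therefore descriptions, as are the counts of the wider lists below. Of all genes tested 11% were called higher and 22.4% in either direction, and 46.8% had no overlap. Ptprz1 averaged 27.5 ± 16.7 CPM in SC EU and 27.1 ± 15.2 CPM in RGC EU (SD, n = 3 each, log2 fold change 0.02 ± 0.78), so that this phosphatase gene overlapped between these libraries. In TPM, SC EU replicates 3 to 5 held 2.82 to 9.55 and RGC EU 1.84 to 3.13. P14 SC EU replicates 1 and 2, not used here, held 259.1 and 28.4 TPM. SC EU at P10 held 12.99 to 33.2 TPM and LGN EU 34.55 to 209.3 TPM, but SC EU at 8 weeks went down to 1.92 TPM. Of the wider lists, 11 of 13 mature myelin genes, 6 of 11 genes of newly formed oligodendrocytes and 3 of 14 further OPC genes were called higher in SC EU and none lower.

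Ribosome-bound RNA of the SC was likewise set against FACS-sorted eye cells at P14. Olig1 had 842, 650 and 947 CPM in axon-TRAP, against 0, 0 and 0.249 CPM in FACS cells (log2 fold change 13.47 ± 1.27, adjusted p = 0.00049), and Olig2 had 161, 81.1 and 153 CPM in axon-TRAP, against 0, 0 and 0.0935 CPM in FACS cells (12.19 ± 1.01, adjusted p = 0.00033). Gpr17, Sox10 and Neu4 were at 0 in all 3 FACS libraries, and axon-TRAP exceeded the limit of 3 counts (0.0234 CPM) at least 14700-fold for Gpr17, 7300-fold for Sox10 and 2060-fold for Neu4. The values of Olig1 and Olig2 in FACS cells came from 8 and 3 counts in replicate 3. These 5 were called higher, but each passed the filter on low counts only through the axon-TRAP libraries. This count, the fold changes and adjusted p of Olig1 and Olig2, and the counts of the wider lists are therefore descriptions too. Of all genes tested 22.2% were called higher, 44.5% in either direction, and 63.9% had no overlap. Cspg4, Pdgfra and Ptprz1 were higher in mean but not called (log2 fold changes 1.79, 3.69 and 1.92, adjusted p = 0.18, 0.079 and 0.099, edgeR). The wider lists were called higher in 13 of 14 myelin genes, 11 of 12 newly formed oligodendrocyte genes and 9 of 15 further OPC genes, with 2 of the OPC genes lower.

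The ratio of ribosome-bound to EU-labelled RNA was compared in the SC at P10 and P14 and in the LGN at P14. At P10 the transcription factor genes Olig1 and Olig2 were higher in axon-TRAP, and the surface proteoglycan gene Cspg4 was lower. Olig1 had 1790, 887 and 1280 CPM in axon-TRAP, against 240, 298 and 212 CPM in EU RNA, a log2 fold change of 2.40 ± 0.40 (adjusted p = 0.0052). Its partner Olig2, which specifies the lineage, had 99.8, 124 and 183 CPM in axon-TRAP, against 45, 40.8 and 52.5 CPM in EU RNA (1.56 ± 0.36, adjusted p = 0.016). For both genes every axon-TRAP library lay above every EU library. Cspg4 had 47.6, 29.8 and 33.3 CPM in axon-TRAP, against 143, 80.2 and 76.5 CPM in EU RNA (−1.44 ± 0.39, adjusted p = 0.030), again with no overlap, which held for 38.9% of all genes tested. These were the 3 members called at P10, 2 higher and 1 lower, where 6.38% of all genes tested were called higher and 11.1% lower, 17.4% together. With the trend on length removed 2 members were called, both higher, so that Cspg4 lost its call. Its longest transcript has 8121 bases, against 2162 for Olig1 and 2530 for Olig2. Spearman correlations of deviation with length were −0.305, −0.339 and −0.396 in axon-TRAP, against −0.130, −0.138 and −0.043 in EU RNA. Without any one of the 3 EU libraries 1 member was called, Olig1; Olig2 was then at an adjusted p of 0.051 to 0.069, and Cspg4 also lost its call without axon-TRAP replicate 2 or 3 (adjusted p = 0.11 and 0.10, edgeR). Ptprz1 had 45.4, 68.8 and 26.1 CPM in axon-TRAP, against 73.6, 226 and 110 CPM in EU RNA, a log2 fold change of −1.55 ± 0.50 that missed the threshold (adjusted p = 0.058, edgeR). Sox10, the partner of Olig1 and Olig2 in myelin gene control, had 188, 111 and 259 CPM in axon-TRAP and 125, 98.2 and 91.6 CPM in EU RNA (0.82 ± 0.38, adjusted p = 0.17).

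At P14 none of the 8 was called by edgeR, where 14.4% of all genes tested were. In edgeR 2 members had an unadjusted p under 0.05, as had 4910 of all 16277 genes. DESeq2 called 0 members and 4819 of 18368 genes, and limma 0 members and 2697 of 16277 genes. Olig1 had 805, 619 and 926 CPM in axon-TRAP, against 502, 445 and 377 CPM in EU RNA (log2 fold change 0.83 ± 0.34, adjusted p = 0.12, edgeR). Cspg4 had 31.7, 58.2 and 49.1 CPM in axon-TRAP, against 101, 127 and 65.2 CPM in EU RNA (−1.08 ± 0.39, adjusted p = 0.088, edgeR). The directions were those of P10 with smaller differences, and neither gene's libraries overlapped, which held for 37.2% of all genes tested. The difference between the ages was tested as an interaction: for Olig1 the log2 ratio at P14 minus that at P10 was −1.62 ± 0.50 (unadjusted p = 0.0051, adjusted p = 0.36, edgeR), and 0 members and 0% of all genes passed (2051 genes at an unadjusted p under 0.05; DESeq2 called 1 member).

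In the LGN the members did not all follow the SC. Cspg4 had 78, 49.7 and 118 CPM in axon-TRAP, against 21.4 and 30.6 CPM in EU RNA (log2 fold change 1.65 ± 0.76, adjusted p = 0.19, edgeR), the opposite direction to both SC ages, and with the trend on G and C content removed it was at −0.33 (adjusted p = 0.85). Pdgfra averaged 34.7 ± 17.1 CPM in axon-TRAP (SD, n = 3) and 33.4 ± 18.4 CPM in EU RNA (SD, n = 2; log2 fold change 0.06 ± 0.88), with overlap, and changed sign under other scalings (−0.23 with RLE size factors). Olig1 had 2130, 874 and 4260 CPM in axon-TRAP, against 246 and 158 CPM in EU RNA (log2 fold change 3.58 ± 0.88, adjusted p = 0.060, edgeR). Olig2 had 270, 104 and 893 CPM in axon-TRAP, against 5.89 and 50.2 CPM in EU RNA (3.91 ± 1.18, adjusted p = 0.064, edgeR). Ptprz1 had 4.71, 36.6 and 0.413 CPM in axon-TRAP, against 639 and 83.9 CPM in EU RNA (−4.69 ± 1.41, adjusted p = 0.063, edgeR). None of the 8 was called by edgeR, where 1.40% of all genes tested were. In edgeR 5 members had an unadjusted p under 0.05, as had 4545 of all 16561 genes. DESeq2 called 4 members and 3915 of 18299 genes, and limma 2 members and 2457 of 16561 genes. The libraries of 7 of the 8 members did not overlap between captures, as for 52.2% of all genes tested. No member was called between SC and LGN in either capture, where 0% of genes were called; 0 members had an unadjusted p under 0.05 or separate libraries in either, and 32.1% of all genes in EU RNA and 17% in axon-TRAP had libraries that did not overlap. DESeq2 and limma called 0 members there.

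**Figure D2:**
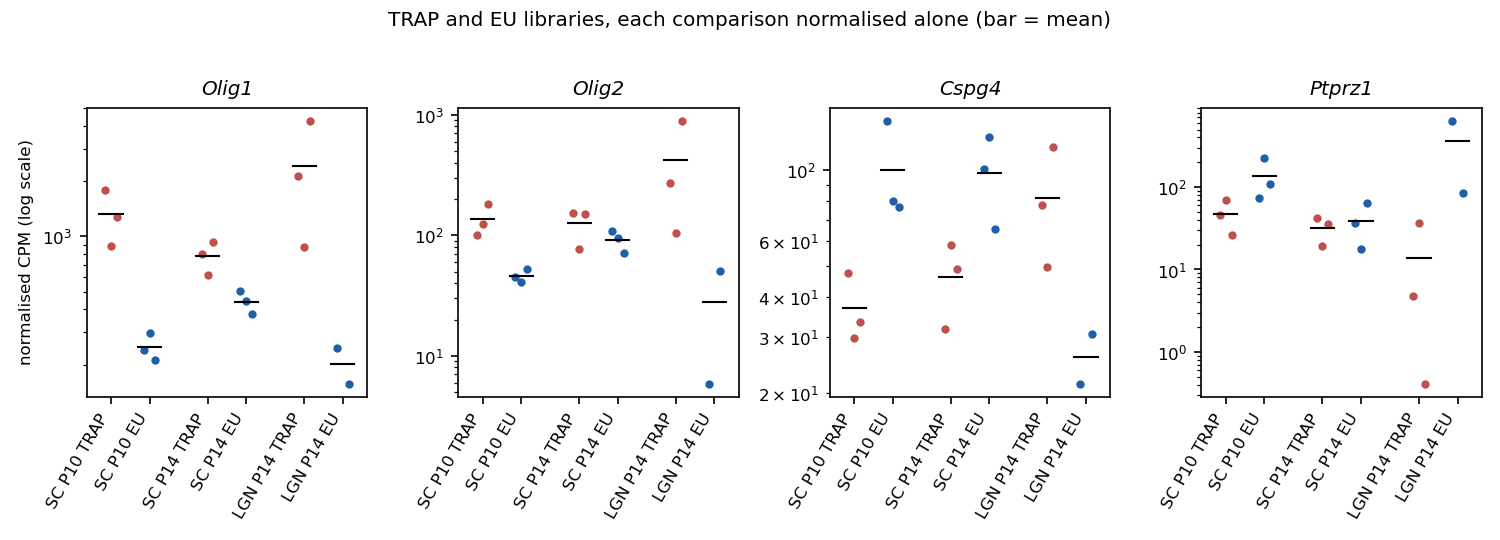
Normalised CPM (log scale) of Olig1, Olig2, Cspg4 and Ptprz1 in axon-TRAP, left, and EU RNA, right, of the SC at P10, the SC at P14 and the LGN at P14; points are libraries and bars means. Olig1 and Olig2 lay higher in axon-TRAP and Cspg4 lower at P10, and the Ptprz1 libraries of the LGN spanned 0.413 to 639 CPM.

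The wider lists did not share the split of the members in one direction. At P10, 2 of 15 further OPC genes were called higher in axon-TRAP and 3 lower, among them the protocadherin gene Pcdh15 (log2 fold change −2.32) and Xylt1 (−2.21), which starts glycosaminoglycan chains of the kind that Cspg4 carries. Of 11 genes of newly formed oligodendrocytes 0 were higher and 1 was lower, Itpr2 (−1.90), and of 14 mature myelin genes 0 were called in either direction. Among 12 ligands and partners of the members 2 were called higher and 0 lower: Tcf3 (1.63 ± 0.39, adjusted p = 0.018), an E protein that can pair with Olig factors, and Id4 (2.57, adjusted p = 0.023), which binds E proteins. At P14, 3 of 15 further OPC genes were higher and 1 lower, with Pcdh15 again lower (−2.64).

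Development was followed in SC EU RNA at P10, P14 and 8 weeks. Gpr17, the marker of the committed stage, was the single member called from P10 to P14, with 357, 473 and 266 CPM at P14, against 93.5, 147 and 83.4 CPM at P10. Each of P14 replicates 3 to 5 lay above every P10 library, and the log2 fold change was 1.76 ± 0.34 (adjusted p = 0.029, edgeR). Of all genes tested 0.910% were called higher and 2.03% in either direction. P14 replicate 1, not used here, held 10.7 TPM of Gpr17, below the P10 libraries at 21.5 to 31.4 TPM. With all 5 wild-type P14 libraries in place of replicates 3 to 5 the value was 1.28 ± 0.71 (adjusted p = 0.69, edgeR), and the call was also lost without any one of the 3 P10 libraries or either of P14 replicates 3 and 4. Neu4 had 47.0, 32.7 and 17.6 CPM at P14, against 10.3, 11.7 and 9.68 CPM at P10 (1.62 ± 0.47, adjusted p = 0.098, edgeR). Olig1, Olig2 and Sox10 were also higher in each of P14 replicates 3 to 5 than in any P10 library but were not called. Such a lack of overlap was found for 25.7% of all genes. P14 replicate 1 lay below every P10 library for Olig2 (5.79 TPM) and Sox10 (35.6 TPM) but above them for Olig1 (187.3 TPM). With replicates 3 to 5 the log2 fold changes of Olig1, Olig2 and Sox10 lay at or under 1.01 with adjusted p of 0.11 or more (edgeR). Ptprz1 went the other way, with 34.7, 17.5 and 62.8 CPM at P14 and 68.6, 220 and 109 CPM at P10 (−1.79 ± 0.52, adjusted p = 0.097, edgeR).

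In the same comparison 8 of 14 mature myelin genes were called higher and 0 lower, with a list median of 2.14 on the log2 scale. Mobp, a myelin structural protein gene, averaged 1710 CPM at P14 and 181 CPM at P10 (3.24 ± 0.33, adjusted p = 0.0019), and Mbp, which encodes myelin basic protein, 9450 CPM at P14 and 1090 CPM at P10 (3.12 ± 0.37, adjusted p = 0.0035). Of 11 newly formed oligodendrocyte genes 1 was called higher, Bcas1 (1.31 ± 0.29, adjusted p = 0.048), and of 15 further OPC genes none was called (median −0.12).

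Axon-TRAP RNA between the same ages gave no call for any member or for 0% of all genes tested by edgeR (2275 genes and 2 members had an unadjusted p under 0.05; DESeq2 and limma called 0 members each). Gpr17 had 380, 321 and 276 CPM at P14, against 43.0, 151 and 221 CPM at P10 (1.24 ± 0.54, adjusted p = 0.33, edgeR), with no overlap. Neu4 had 47.2, 39.6 and 50.3 CPM at P14, against 23.4, 10.7 and 17.5 CPM at P10 (1.41 ± 0.42, adjusted p = 0.20, edgeR). Olig1 was lower at P14 in all 3 libraries, at 785, 613 and 917 CPM, against 1920, 963 and 1370 CPM at P10 (−0.88 ± 0.42, adjusted p = 0.37, edgeR). In TPM these libraries overlapped, at 540, 367.9 and 767.4 at P14, against 1092, 433.7 and 452.3 at P10. P14 replicates 1 and 2, not used here, held 714.7 and 1794 TPM. Non-overlapping libraries were found for 22.0% of all genes in this comparison.

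At 8 weeks Gpr17 had 14, 10.6 and 37.2 CPM, against 324, 431 and 244 CPM at P14. All 3 adult libraries lay far below P14 replicates 3 to 5, with a log2 fold change of −4.01 ± 0.73 (unadjusted p = 0.00022, edgeR). The adjusted p was 0.46, and edgeR called 0% of all genes tested (1548 genes and 3 members at an unadjusted p under 0.05). DESeq2 called 1 member and 1047 of 18762 genes. P14 replicate 1, not used here, held 10.7 TPM of Gpr17, against 1.79 to 8.53 TPM at 8 weeks. Neu4 had 8.05, 8.55 and 8.21 CPM at 8 weeks, against 42.5, 29.8 and 16.1 CPM at P14, and Cspg4 15.8, 6.66 and 47.3 CPM at 8 weeks, against 87.5, 113 and 59.2 CPM at P14. Both were lower in every 8-week library than in any of P14 replicates 3 to 5, and 12.3% of all genes had no overlap in one direction or the other. Cspg4 in P14 replicate 1 was at 1.39 TPM, below the 8-week libraries at 1.79 to 17.9 TPM.

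The 8-week replicates did not resemble each other in several members. Olig1 stood at 87.7, 26.6 and 242.7 TPM in replicates 1 to 3, Sox10 at 11.8, 5.98 and 72.6 TPM and Ptprz1 at 22.4, 39.2 and 1.92 TPM. Replicate 3 was the high library for the G and C rich factors and the low one for Ptprz1. Across all expressed genes its counts rose with G and C content (Spearman correlation of deviation with G and C content over genes 0.451), whereas those of replicates 1 and 2 fell with it (−0.621 and −0.660). Without replicate 3, 6 of the 8 members were called, 5 lower and 1 higher, where 3385 of all 18734 genes tested were called. Gpr17 was then at −4.77 ± 0.52 (adjusted p = 0.014), Sox10 at −2.86 ± 0.44 (0.014), Cspg4 at −2.96 ± 0.58 (0.020) and Ptprz1 at 2.40 ± 0.65 (0.039, edgeR). With the trend on G and C content removed and all 3 libraries kept, Gpr17 was at −3.64 ± 0.38 (adjusted p = 0.069, edgeR).

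**Figure D3:**
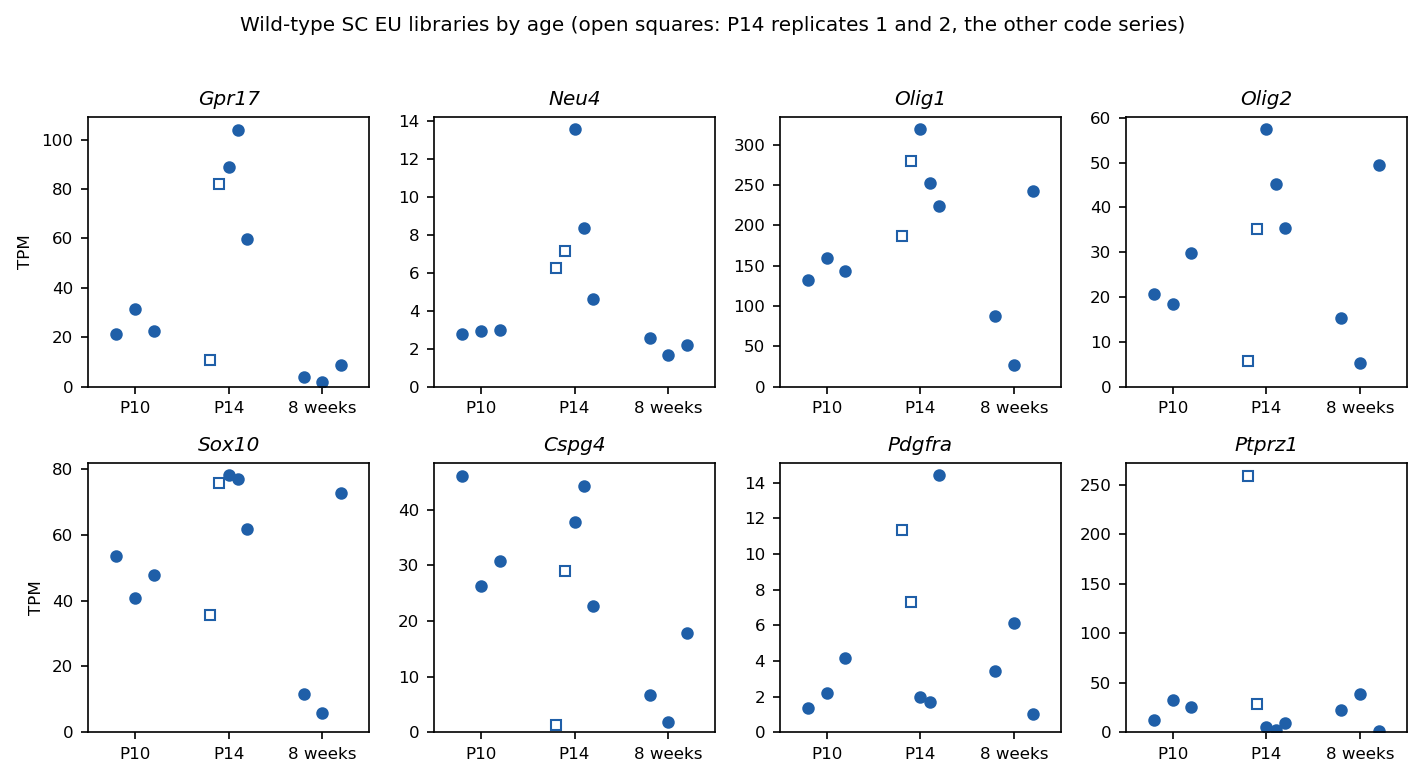
TPM (linear axis from 0) of the 8 genes in wild-type SC EU libraries at P10, P14 and 8 weeks; each point is 1 library, and open squares are P14 replicates 1 and 2, which belong to another code series. Gpr17 and Neu4 were highest in mean at P14 and low at 8 weeks, although P14 replicate 1 held 10.7 TPM of Gpr17, below the P10 libraries. The Olig1, Sox10 and Ptprz1 values of the 3 adult libraries spread over a wide range.

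A 4-day chase after labelling at P10 asked how long EU-labelled RNA stays. No member was called against P10 by edgeR, where 0.00597% of all genes tested were; 2 members and 3030 genes had an unadjusted p under 0.05, and DESeq2 and limma called 0 members each. Neu4 had 21.1, 26.1 and 25.7 CPM after the chase, against 12.3, 13.8 and 11 CPM at P10 (log2 fold change 0.98 ± 0.35, adjusted p = 0.20, edgeR). Cspg4 had 45.4, 64.5 and 82.5 CPM after the chase, against 159, 92 and 85.6 CPM at P10, with no overlap, as for 25.6% of all genes. Olig1 was close to even across the chase libraries, at 218, 214 and 208 CPM, against 268, 341 and 238 CPM at P10. The chased animals were 4 days older at collection than the P10 animals, so that chase and age cannot be told apart.

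In axotomized sarm1ko animals the severed axons lack a protein that drives axon degeneration. Against wild-type P14 SC EU libraries, 5 members were called lower and none higher, where 20.8% of all genes tested were called lower and 37.6% in either direction. Gpr17 had 9.33, 13.4 and 16.6 CPM in sarm1ko SC, against 263, 344 and 185 CPM in wild-type SC, a log2 fold change of −4.33 ± 0.38 (adjusted p = 0.0017). Sox10 had 13.5, 21.8 and 15.2 CPM in sarm1ko SC, against 113, 125 and 93.6 CPM in wild-type SC (−2.71 ± 0.33, adjusted p = 0.0017). Cspg4 had 15.1, 14.1 and 7.76 CPM in sarm1ko SC, against 71.2, 90.1 and 44.9 CPM in wild-type SC (−2.47 ± 0.40, adjusted p = 0.0027). For each of these genes the highest sarm1ko library lay below the lowest of wild-type P14 replicates 3 to 5. Of all genes 57.8% had no overlap in one direction or the other. Cspg4 in wild-type P14 replicate 1, not used here, was at 1.39 TPM, against 1.35 to 7.38 TPM in sarm1ko SC. Olig1 had 52.6, 85.1 and 64.1 CPM in sarm1ko SC, against 354, 316 and 260 CPM in wild-type SC (−2.20 ± 0.31, adjusted p = 0.0020). Olig2 had 13.9, 23.7 and 19.5 CPM in sarm1ko SC, against 76.6, 67.7 and 49.3 CPM in wild-type SC (−1.76 ± 0.35, adjusted p = 0.0049). Neu4 had 8.78, 9.18 and 12.6 CPM in sarm1ko SC, against 34.6, 23.8 and 12.2 CPM in wild-type SC, lower in mean but not called (−1.21 ± 0.46, adjusted p = 0.059, edgeR). Ptprz1 had 59.8, 47.3 and 55.9 CPM in sarm1ko SC, against 25.6, 12.7 and 43.6 CPM in wild-type SC (0.99 ± 0.43, adjusted p = 0.090, edgeR), and Pdgfra gave −0.07 ± 0.60.

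Genotype, axotomy, chase and age all differ between these groups and cannot be told apart. The 4-day chase libraries give a wild-type, naïve group that was also chased, although for fewer days and from P10. Against them 4 members were called lower, where 11.3% of all genes tested were (21.2% in either direction, and 40.4% with no overlap); the 2 comparisons share the sarm1ko libraries. Gpr17 had 11.1, 15.9 and 19.7 CPM in sarm1ko SC, against 74.0, 127 and 124 CPM after the 4-day chase (−2.80 ± 0.34, adjusted p = 0.00031). Sox10 was at −1.78 ± 0.32 (adjusted p = 0.0023), Cspg4 at −1.63 ± 0.35 (0.0062) and Olig1 at −0.93 ± 0.28 (0.031, edgeR). The Olig1 call was lost without chase replicate 2 or 3 or sarm1ko replicate 1 or 3 (adjusted p of 0.055 to 0.17).

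The sarm1ko libraries also stood apart in composition. An rRNA-annotated gene, CT010467.1, took 46.6, 27.4 and 48.5% of their counts, against 10.9, 4.54 and 33.7% in the P14 libraries and 5.16, 9.46 and 0.310% in the chase libraries, and counts fell with G and C content in all 3 (Spearman correlations −0.509, −0.533 and −0.492, against 0.467, 0.488 and −0.030 at P14 and −0.425, −0.068 and −0.246 after the chase). When the trend on G and C content was removed from each library, Gpr17 was the single member still called lower against P14, at −3.44 ± 0.31 (adjusted p = 0.0038, edgeR). The G and C rich genes then stood at −0.36 for Olig1 (adjusted p = 0.33), −0.14 for Olig2 (0.75), −0.75 for Cspg4 (0.11) and −0.80 for Sox10 (0.058, edgeR), and Ptprz1 turned to −0.31 (0.46). Against the 4-day chase Gpr17 was at −2.39 ± 0.29 (adjusted p = 0.0010) and Ptprz1 at −1.22 ± 0.33 (0.028), both called lower, whereas Olig1 turned to 0.17 (0.69) and Sox10 and Cspg4 were at −0.58 (0.13) and −0.67 (0.16, edgeR). With all 5 wild-type P14 libraries, Gpr17 (−3.87, adjusted p = 0.031), Olig1 (−1.88, 0.039) and Sox10 (−2.34, 0.036, edgeR) were called, Cspg4 and Olig2 were not, and Ptprz1 was at −1.24. The trend on G and C content was set against the other comparisons too: at P10 the 3 calls between axon-TRAP and EU RNA held, with Olig1 at 2.02 ± 0.39 (adjusted p = 0.0076), Olig2 at 1.29 ± 0.36 (0.029) and Cspg4 at −1.66 ± 0.36 (0.012), and from P10 to P14 Gpr17 stayed called at 1.54 ± 0.28 (0.020, edgeR). With the trend on length removed instead, Cspg4 was not called at P10, and 0 members were called from P10 to P14 in EU RNA.

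**Figure D4:**
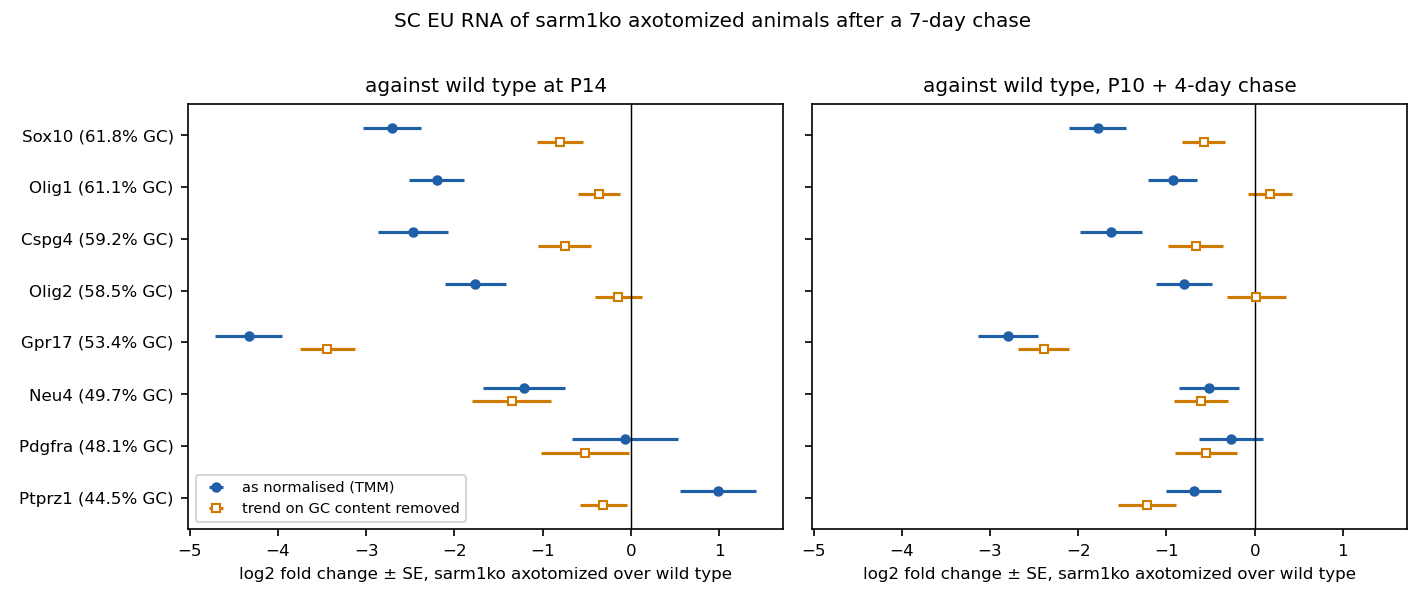
Log2 fold change (± SE) of the 8 genes in sarm1ko axotomized SC EU RNA against P14, left, and against the 4-day chase, right, as normalised and with the trend on G and C content removed; genes are ordered by the G and C content of their longest transcript. Gpr17 stayed at −3.44 and −2.39 after the trend was removed, and Olig1 moved to −0.36 and 0.17.

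The wider lists held changes in both directions beside these values. Of 15 further OPC genes 0 were higher and 4 lower against P14, with the AMPA receptor auxiliary subunit gene Cacng4 at −2.56 and the C1q-like gene C1ql1 at −3.32. Of 12 newly formed oligodendrocyte genes 1 was higher and 4 were lower, among them Fyn (−2.21), a kinase of myelination onset, and Bmp4 (−2.60), a secreted factor that committed precursors make. Mature myelin genes were split, 5 higher and 4 lower of 14, with Mal (2.47 ± 0.31, adjusted p = 0.0017), a myelin proteolipid gene, and Aspa (3.68), a gene of N-acetylaspartate breakdown, among those higher. Their summed level was 2472 to 9011 TPM in sarm1ko SC and 6808 to 10690 TPM in P14 SC, while that of the 8 members was 39.1 to 138.6 TPM in sarm1ko SC, against 431.9 to 603.2 TPM in P14 SC. Summed TPM of other lists was lower too. The 9 RGC markers summed to 168.5 to 652.5 TPM in sarm1ko SC, against 1701 to 3325 TPM in P14 SC. The 12 astrocyte markers summed to 541.3 to 1898 TPM, against 2248 to 3928 TPM in P14 SC. As normalised for the test, the median log2 fold change was −0.02 for RGC markers and −0.01 for astrocyte markers. It was −1.98 for the members and 0.16 for all genes tested. Of the markers tested, 2 of 7 for RGCs and 3 of 12 for astrocytes were called lower and 0 higher. The part of these cell types in the members' values was not tested. Of 12 ligands and partners 1 was higher and 4 were lower, with Pdgfa (−1.91 ± 0.31, adjusted p = 0.0028), the ligand of Pdgfra, and Id2 (−1.95). Against the 4-day chase, 0 of 12 newly formed oligodendrocyte genes were higher and 6 lower (median −1.07), 6 of 14 myelin genes were higher and 1 lower (median 0.95), and Pdgfa was again called lower (−1.43). Lims2, which overlaps Gpr17 on the other strand, averaged 10.7 ± 4.58 CPM in sarm1ko SC and 34.4 ± 5.53 CPM after the chase (SD, n = 3 each; −1.68 ± 0.37, adjusted p = 0.0065, edgeR), so that both genes of the locus were lower.

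In SC EU libraries labelled fmr1ko no member was called by edgeR, where 1.11% of all genes tested were. In edgeR 4 members had an unadjusted p under 0.05, as had 3912 of all 16546 genes. DESeq2 called 1 member and 2515 of 18311 genes. Cspg4 had 37.4, 24.0 and 36.3 CPM in the libraries labelled fmr1ko, against 86.2, 111 and 57.4 CPM in wild-type libraries (log2 fold change −1.38 ± 0.35, adjusted p = 0.076, edgeR). Gpr17 had 199, 86.4 and 215 CPM in the libraries labelled fmr1ko, against 319, 424 and 236 CPM in wild type (−0.97 ± 0.39, adjusted p = 0.18, edgeR), and Olig1 217, 243 and 288 CPM in the libraries labelled fmr1ko, against 428, 389 and 332 CPM in wild type (−0.62, adjusted p = 0.20, edgeR). In each of these genes all 3 libraries labelled fmr1ko lay below all 3 wild-type libraries, as was so in one direction or the other for 32.1% of all genes. Counts of these libraries fell with G and C content (−0.282, −0.433 and −0.024, against 0.467, 0.488 and −0.030 in wild type). With the trend removed Cspg4 was at −0.60 (adjusted p = 0.21) and Olig1 turned to 0.27 (0.62, edgeR), and no member was called.

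In SC axon-TRAP, Olig1 had 403, 0.154 and 292 CPM in libraries labelled fmr1ko, against 900, 696 and 1030 CPM in wild-type libraries, and Gpr17 322, 0 and 222 CPM in libraries labelled fmr1ko, against 436, 364 and 309 CPM in wild type. The libraries of 3 members did not overlap, as for 29.4% of all genes. The second value in each group of libraries labelled fmr1ko is replicate 2, the library that carried rod transcripts. No member was called by edgeR with it, where 0% of all genes tested were (2879 genes and 0 members at an unadjusted p under 0.05). None was called without it, where 2226 of all 17261 genes were. Olig1 was then at −1.36 ± 0.37 (adjusted p = 0.054) and Olig2 at −1.39 ± 0.44 (adjusted p = 0.075, edgeR). The difference of the labelled genotype effect between captures was called for 0 members and 5.92% of all genes, with Cspg4 at 1.47 ± 0.67 (adjusted p = 0.20), and without replicate 2 for 0 members and 2765 of 19738 genes, with Cspg4 at 1.84 ± 0.62 (adjusted p = 0.060, edgeR). In FACS eye cells 2 of the 8 members passed the filter on low counts, Ptprz1 and Cspg4, and neither was called, where 0.0593% of all genes tested were (log2 fold changes −5.39 ± 1.52 and 1.20, adjusted p = 0.17 and 0.81, edgeR). DESeq2 called 1688 of 15932 genes, among them Ptprz1 (adjusted p = 0.00017) and Sox10 (adjusted p = 0.041). Sox10 was at 0 in all 3 wild-type FACS libraries, and the filter had left it out of edgeR's test. In those labelled fmr1ko it had 0, 13 and 298 counts, so that its DESeq2 call rested mostly on 1 library and is a description. Ptprz1 had no overlap between the groups, nor had 22.3% of all genes.

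Across the brain libraries the 3 transcription factors varied together. Without replicate 2 of SC axon-TRAP labelled fmr1ko (35 libraries), Pearson's r of log2(TPM + 1) was 0.923 between Olig1 and Sox10, 0.862 between Olig2 and Sox10 and 0.854 between Olig1 and Olig2; with it (36 libraries) these were 0.943, 0.902 and 0.895. Within the 22 EU libraries they were 0.941, 0.773 and 0.687, and within the 13 axon-TRAP libraries without that replicate 0.777, 0.797 and 0.859. Gpr17 correlated with Sox10 at 0.806 over 35 libraries and 0.845 over 36, but at 0.887 within EU RNA and 0.273 within axon-TRAP, where its r with Olig1 was −0.173. Neu4 correlated with Sox10 at 0.734 over 35 libraries and 0.789 over 36, with 0.688 within EU RNA and 0.644 within axon-TRAP. Ptprz1 stood against Olig2 at −0.655 over 35 libraries and −0.346 over 36, and with Pdgfra at 0.414 and 0.499. These are descriptions over libraries that share groups, depth and the trend on G and C content. Among 7184 genes of sufficient level, those most like the mean standardised profile of the 8 in log2(normalised CPM + 1) were Bcan (0.959), Tmem151a (0.944), Rims4 (0.939), Acsbg1 (0.933) and Kcnip3 (0.923). Over the same 36 libraries single members were matched best by Bmp4 for Gpr17 (0.898), Pllp for Neu4 (0.889), Acap3 for Cspg4 (0.885), B3galnt1 for Pdgfra (0.848), Bcan for Olig1 (0.960), Fam131a for Olig2 (0.931), Tmem151a for Sox10 (0.966) and Gria2 for Ptprz1 (0.878). Without replicate 2 of the SC axon-TRAP libraries labelled fmr1ko, the list for the mean profile over 35 libraries was Pak4 (0.915), Bcan (0.904), Ptdss2 (0.899), Tmem151a (0.891) and Tspan9 (0.891). The best match of each single member was then Llgl1 for Gpr17 (0.857), Pllp for Neu4 (0.824), Acap3 for Cspg4 (0.907), Lrp11 for Pdgfra (0.758), Pebp1 for Olig1 (0.974), Gamt for Olig2 (0.933), Mlf2 for Sox10 (0.955) and Atrx for Ptprz1 (0.872), so that Pllp and Acap3 were the matches that stayed.

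**Figure D5:**
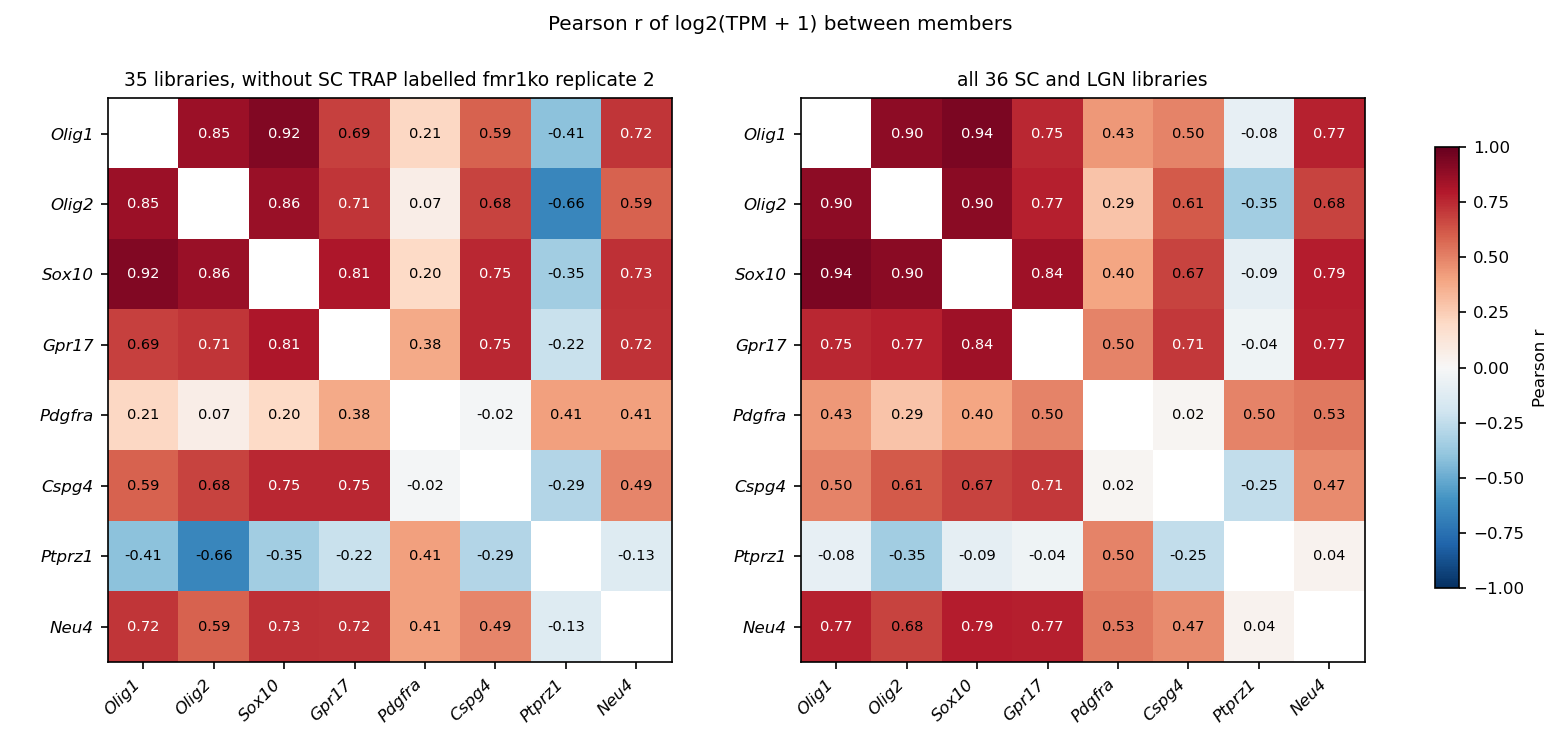
Pearson's r of log2(TPM + 1) between the 8 genes over 35 brain libraries, without replicate 2 of SC axon-TRAP labelled fmr1ko (left), and over all 36 (right); colour and number give r. Olig1 and Sox10 were at 0.923 and 0.943, and Ptprz1 was at −0.655 and −0.346 with Olig2.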

How the data were processed

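The 2 deposited tables of all 48 libraries were used. The authors deposited estimated counts per gene and TPM per gene from Salmon on mm10, per the submitters' processing notes; those notes name no version, no strand setting and no correction for G and C content. Libraries were made with Nextera XT and sequenced on an Illumina NovaSeq, per the labels' protocols; EU RNA was captured with a Click-iT kit. Gene IDs were matched to GENCODE M21, which gave a symbol to 54097 of 54331 genes.

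Estimated counts were rounded to whole numbers. Each comparison was fitted alone with edgeR 4.0.16 in R 4.3.3 (TMM factors, filterByExpr with a minimum count of 10, glmQLFit and glmQLFTest, two-sided, Benjamini-Hochberg over all genes tested), and a gene was called at an adjusted p under 0.05. Standard errors are the log2 fold change over the square root of F. There were 16 comparisons and 2 interactions. Group means ± SD are of TPM across groups and of normalised CPM within comparisons. Where a group was at 0 in every library, the fold is a bound over 3 counts in the group's summed library sizes. Bounds cover counting error only. Removing the trend on G and C content subtracted a lowess curve (span 0.3) of each library's log2 deviation on G and C content and was chosen after seeing the data. Alternatives were RLE size factors, no filter, DESeq2 1.42.0, limma 3.58.1 on log2(TPM + 1), a length trend removed, a replicate block, all 5 wild-type P14 libraries and each library left out. The steps were tested on counts simulated for axon-TRAP against EU at P10 and for sarm1ko against P14. Genes with a true log2 change of 1 were called in 0 of 94 and 0 of 85 cases. At a true change of 2 they were called in 9 of 90 and 20 of 82 cases. No unchanged gene was called (0 in each), and the median ratio of fitted to true change was 1.00 to 1.10. In these simulations most changes of such size were therefore missed, so a gene not called is not shown to be unchanged. Each simulation changed far fewer genes than the 2742 and 6453 called in these 2 comparisons of the data. The share missed there may therefore differ.

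The members and the wider gene lists were chosen with earlier results of these data known. All 8 members are named; from each wider list the called genes with the smallest adjusted p were named, at most 2 per comparison. Most like genes were ranked by Pearson's r over 36 brain libraries among genes with a mean of at least 4 on the log2 CPM scale.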

Additional observations from a re-analysis of the deposited data

Results flagged for a closer look

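Among 16 sets of values tested for a library far from the rest (the 8 genes in each of the 2 groups of 5 libraries), 3 held one, where chance gives about 1 in 20. Ptprz1 stood at 259.1 TPM in replicate 1 of wild-type P14 SC EU, with the next library at 28.4 TPM and the lowest at 2.82 TPM. In the same code series of the titles, LGN EU replicate 1 held 209.3 TPM of Ptprz1, and these libraries had the low Olig2 levels of 5.79 and 4.73 TPM. Gpr17 stood at 180.4 TPM in replicate 1 of wild-type P14 SC axon-TRAP, with the next library at 98.4 TPM. Olig1 stood at 1794 TPM in replicate 2 of that group, with the next at 767.4 TPM. Replicates 1 and 2 of these groups were not used in the comparisons with replicates 3 to 5.

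Immunopanned RGCs without EU labelling entered no comparison, and 5 members gave counts above the limit of 3 there. The highest of the 3 libraries held 1.662 TPM of Ptprz1 (243 counts summed over the group; lowest library 0.254 TPM), 0.1422 TPM of Pdgfra (61 counts), 0.05479 TPM of Cspg4 (14 counts), 0.04237 TPM of Sox10 (7 counts) and 0.01643 TPM of Gpr17 (4 counts). The Ptprz1 value came from replicate 1, which stood apart from its group, with a mean correlation over genes of 0.129 with the other libraries of the group (0.556 and 0.543 for replicates 2 and 3) and 928.6 TPM summed over the newly formed oligodendrocyte genes (3.11 and 2.39 TPM). These levels lay below the medians of the brain libraries for all 5 genes.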

How the results depend on the processing

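Of the fold changes of the members described in the text, recomputed under each alternative, 759 kept direction and side of the threshold, 60 newly passed it, 36 no longer passed it and 18 reversed; of the counts of called members, 190 stayed within 1.5 times and 33 did not. Over all 138 member and comparison pairs tested, described or not, 47 took both signs over the alternatives, of which 1 was among the 24 called. With the trend on G and C content removed, reversals were Cspg4 in LGN axon-TRAP against EU (−0.33), Ptprz1 in sarm1ko against P14 (−0.31), Olig1 in sarm1ko against the chase (0.17) and Olig1 in EU libraries labelled fmr1ko (0.27). With all 5 P14 libraries they were Ptprz1 from P10 to P14 in EU RNA (0.40), at 8 weeks (−0.31) and in sarm1ko (−1.24). Pdgfra in LGN axon-TRAP against EU turned with RLE size factors (−0.23), DESeq2 (−0.23) and limma (−0.69) and ran from −0.43 to 0.84 with 1 library left out; Pdgfra in sarm1ko against P14 ran from −0.47 to 0.96 likewise. Ptprz1 in SC EU against RGC EU was at −0.80 with the length trend removed and −0.48 to 0.53 with 1 library left out. The cause was not tested.

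Called members moved as follows. Axon-TRAP against EU at P14, 0 by edgeR, gave 1 without a filter, 1 with the G and C trend removed and 1 with all 5 P14 libraries of each capture, and 0 to 2 with 1 library left out. At P10, 3 became 1 to 3 with 1 library left out, 2 with the length trend removed, and 4 without a filter, by DESeq2 and by limma. In the LGN, 0 became 5 without a filter, 4 by DESeq2, 2 by limma, 5 with the length trend removed and 1 with the G and C trend removed. From P10 to P14 in EU RNA, 1 became 3 without a filter, 4 by DESeq2, 0 with the length trend removed, 0 with all 5 and 0 to 5 with 1 library left out, the 5 without P14 replicate 5. At 8 weeks, 0 became 1 without a filter, 1 by DESeq2 and 0 to 6 with 1 library left out. For sarm1ko against P14, 5 became 1 with the G and C trend removed, 3 with all 5 and 5 to 7 with 1 library left out; against the chase, 4 became 2 with that trend removed, 6 by limma and 3 to 5 with 1 library left out. In EU libraries labelled fmr1ko, 0 became 1 without a filter, 1 by DESeq2 and 0 to 2, the 2 without P14 replicate 5. In FACS cells 0 became 2 by DESeq2, and in the interaction of capture and age 0 became 1 by DESeq2. SC EU against RGC EU ranged from 5 to 7 and axon-TRAP against FACS cells from 5 to 7. Over all genes, sarm1ko against P14 called 6453, 2912 with the G and C trend removed and 1011 with all 5. P14 against P10 in EU RNA called 330, 1626 by DESeq2, 21 with all 5 and 2092 without P14 replicate 5. At 8 weeks 0 genes were called, and 3385 without 8-week replicate 3. Axon-TRAP against EU at P10 called 2742, 4553 by DESeq2 and 3059 by limma. In the LGN it called 232, 2292 without a filter, 3915 by DESeq2 and 2457 by limma. EU libraries labelled fmr1ko gave 183, 2515 by DESeq2 and 3497 without P14 replicate 5. No library was left out of the interactions except replicate 2 of axon-TRAP labelled fmr1ko.

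Replicate numbers were taken from the titles' codes. In no comparison with 3 pairs did every pair pass the correlation limit set for pairing (correlations from −0.585 to 0.216). For P14 against P10 in EU RNA all 3 pairs were positive (0.024 to 0.216). With so few pairs this check cannot show that the samples are unpaired. SC against LGN had 2 pairs in each capture, at 0.317 in EU RNA and at 0.357 and 0.408 in axon-TRAP, too few to decide on pairing. With the replicate block, Pdgfra in sarm1ko against P14 turned to 0.28, axon-TRAP against EU at P10 called 2 members and sarm1ko against P14 called 6, and the other comparisons called as many members as without the block; P14 against P10 in EU RNA called 784 genes, SC against LGN 80 in EU RNA and 90 in axon-TRAP, and the interaction of labelled genotype and capture 0. LGN comparisons rest on 2 EU libraries.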

Other observations

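In EU libraries labelled fmr1ko, Id2, which binds E proteins and holds back differentiation, was called lower (log2 fold change −2.06, adjusted p = 0.042, edgeR), as was the myelin-associated glycoprotein gene Mag (−1.44 ± 0.27, adjusted p = 0.046, edgeR), and these were the only genes called among the further OPC, newly formed oligodendrocyte, myelin and ligand lists in that comparison. Of the ligand and partner list 1 of 13 genes was called higher and 1 lower in SC EU against RGC EU, and 8 of 13 were called higher and 2 lower in SC axon-TRAP against FACS eye cells. Against the 4-day chase, sarm1ko SC also gave a lower value for Mdk (−1.64), a ligand of Ptprz1.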
